A study of Mus musculus with 6 samples.

Results

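Integrins and CD44 are the surface receptors through which blood stem and progenitor cells hold on to the bone marrow. An integrin is a pair of an alpha and a beta chain, and the pair decides the ligand. Alpha4 with beta1 binds VCAM-1 and fibronectin, alpha5 with beta1 binds fibronectin, alpha6 with beta1 binds laminins, alphaL or alphaM with beta2 binds ICAMs, and alphaV binds ligands such as vitronectin. CD44 is a single-chain receptor for hyaluronan.

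The 10 genes described here are Itga4, Itga5, Itga6, Itgb1, Itgb2, Itgal, Itgam, Itgav, Itgb7 and Cd44, of 18193 genes with a probe set of their own. They were taken by symbol with no filter on their values, though the set was chosen with earlier results of these data known. They had 31 of the 45037 probe sets that were not controls, a probe set being a group of short DNA probes for 1 transcript end. The samples were LSK cells, which lack lineage markers, carry Sca-1 and c-Kit, and include stem cells and multipotent progenitors. They were sorted by FACS from lineage-depleted bone marrow of F1 mice from C57BL/6 and FVB/n parents. The 3 deficient samples carried 1 knockout and 1 truncated allele of Ercc1 (-/d), a subunit of a DNA repair endonuclease, and the labels name no Cre driver. The 3 proficient samples were litter mates, of which those of litters 1 and 2 were +/+ and that of litter 3 was +/d, so that this control shares the truncated allele with the deficient mice. Mice of litter 1 were 22 weeks old, those of the other litters 20 weeks. The comparison asks how transcription in LSK cells differs from that of litter mates when Ercc1 is reduced.

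Each sample was 1 array, and 52.3% to 58.6% of the signals of an array lay at the floor of 30, the lowest value of the table. A value at 30 is therefore only an upper bound. Ercc1 was lower in the deficient array of all 3 litters, at 53.1 ± 23.8 against 183 ± 58.3 (SD, n = 3 each), with a log2 difference of -1.36 (limma with litter as a block, adjusted p = 0.0138). Averaged over all Ercc1 probe sets it was -0.45 and did not pass (adjusted p = 0.252 in limma), nor did the brightest one with no variance trend (0.0558). Of the LSK markers Kit, Cd34, Flt3, Slamf1, Cd48 and Procr, 6 of 6 with a probe set were tested and 2 fell, Flt3 (log2 difference -1.05) and Procr (-1.07). Over all probe sets, 0.520% were called lower. Kit (-0.53), Cd34 (-0.50), Slamf1 (0.36) and Cd48 (0.76) did not pass. Kit and Cd34 were lower and Cd48 was higher in the deficient array of every litter. The calls of Flt3 and Procr ended with quantile normalization (adjusted p = 0.0940 and 0.0813 in limma), and that of Flt3 with no variance trend (0.0565). Both calls also ended in the limma fit of probe sets averaged per gene (0.0765 and 0.0677), although the differences themselves stayed at -1.05 and -1.07. Of the tested marker genes of B cells (Cd79b and Ms4a1), T and NK cells (Cd3e and Cd8a among 3), erythroid cells (Klf1 and Epor) and stroma (Col1a2 and Cxcl12), 0 passed, with log2 differences between -0.20 and 0.37. Of 9 mature granulocyte genes 5 rose, S100a8, S100a9, Camp, Ngp and Chil3, beside 0.315% of all probe sets. The call of S100a9 ended in the limma fit of probe sets averaged per gene (adjusted p = 0.0554), while that of Camp stayed (0.0164). Mmp8 and Cxcr2, which mark the most mature neutrophils, read 30 on every array. Whether their probe sets can detect them was not tested. Ltf (log2 difference 1.55) and Lcn2 (1.90) did not pass (adjusted p = 0.123 and 0.0746 in limma). In litter 3 they read 2477 and 3055 in the deficient array, against 123 and 89.3 in the proficient one. The summed signal of the 9 ran from 5850 to 88161 in deficient and from 527 to 18779 in proficient arrays. These are bulk RNA samples, in which fewer cells of a type and less RNA per cell cannot be told apart.

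No integrin or CD44 probe set passed the test of genotype. Of the 31 probe sets, 12 were above the floor on all 6 arrays, 7 on some and 12 on none. A test was possible for the 16 whose mean signal was at or above the median of all probe sets (32.6), and these covered every member except Itgam. Differences are given as deficient minus proficient on the scale log2(signal + 30), compared within litters, where the added 30 understates the change of weak signals. At an adjusted p of 0.05, limma with litter as a block called 0 of the 16, and 1 had an unadjusted p under 0.05. The background in the same fit was 0.835% of 22519 probe sets, 0.315% higher and 0.520% lower, so that a count of 0 among 16 lies near it. An unadjusted p under 0.05 was reached by 6.25% of the member probe sets and by 11.5% of all. Without the block, limma called 0% of all probe sets, and 0 of the 16 had an unadjusted p under 0.05. With 1 litter left out, 1 residual degree of freedom remained per probe set and the blocked fit called 0 probe sets in all, so those fits are given by their differences. The difference of Ercc1 then ran from -1.78 to -0.99, that of Camp from 2.44 to 2.94 and that of S100a9 from 2.21 to 3.17.

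**Figure D1:**
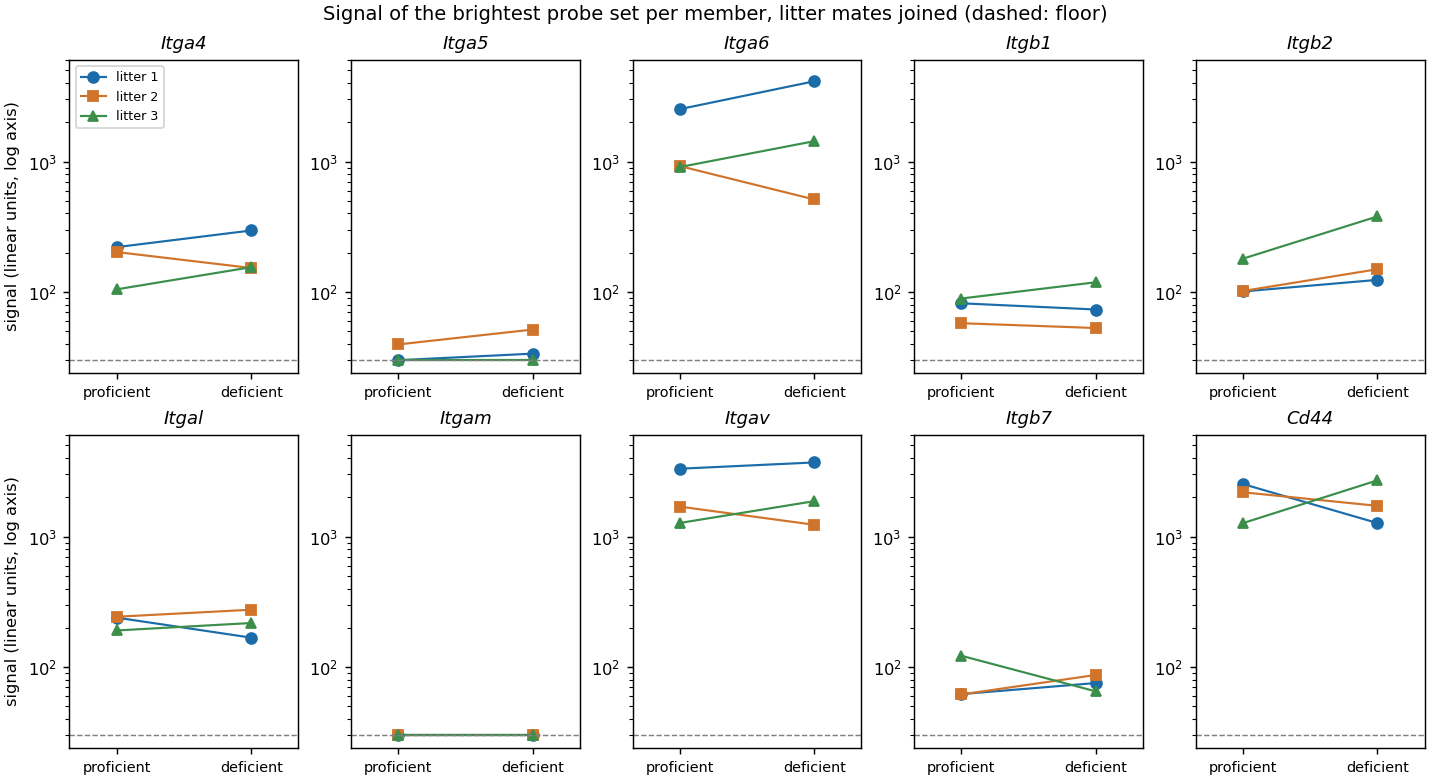
Signal of the brightest probe set of each member on a log axis, in proficient and deficient arrays, with lines joining litter mates and a dashed line at the floor of 30. Lines of the 3 litters run in different directions for most members, slope upward in all 3 litters for Itgb2 (124, 149.5 and 379.7 against 101, 102 and 180.0), and lie on the floor for Itgam.

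The alpha4 chain, which pairs with beta1 to bind VCAM-1 on marrow stroma and with beta7 to bind MAdCAM-1, was measured by 3 probe sets above the floor. The brightest had signals of 296, 153 and 155 in deficient and 221, 203 and 105 in proficient arrays of litters 1, 2 and 3. The deficient array was the higher one in litters 1 and 3 and the lower one in litter 2, and the groups overlapped. The log2 difference of 0.16 had a standard error of 0.24 (95% interval -0.33 to 0.66), and it was 0.0091 with all Itga4 probe sets averaged. The weakest of these probe sets differed in direction, with 165, 160 and 106 in deficient against 224, 169 and 115 in proficient arrays. It was lower in all 3 litters, yet its log2 difference of -0.18 had an adjusted p of 0.795 (limma with litter as a block). The probe sets of Itga4 thus gave no single direction. Another 2 Itga4 probe sets were at the floor on at least 5 arrays.

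The beta1 chain, the shared partner of alpha4, alpha5 and alpha6, was weakly measured. Its brightest probe set read 73.4, 53.0 and 119 in deficient and 82.0, 57.7 and 89.1 in proficient arrays of litters 1, 2 and 3. Only litter 3 had the deficient array higher, and the log2 difference was 0.04 (95% interval -0.43 to 0.52). The second probe set read 34.6, 58.9 and 70.7 against 30, 44.1 and 57.9, where the 30 of litter 1 is the floor. The deficient array was the higher one in each litter, and the log2 difference of 0.19 did not pass (adjusted p = 0.740, limma with litter as a block). The remaining 4 Itgb1 probe sets read 30 on every array.

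Alpha5, the fibronectin receptor chain, lay near the floor. Its brightest probe set read 33.7, 51.6 and 30 in deficient and 30, 39.6 and 30 in proficient arrays, so that 3 of 6 values were at the floor. The log2 difference of 0.10 has no reliable size for that reason. The beta7 chain, which pairs with alpha4 in lymphocytes that home to the gut, had 1 probe set. It read 75.5, 87.1 and 65.1 in deficient and 62.1, 61.7 and 122 in proficient arrays. The deficient array was higher in litters 1 and 2 and lower in litter 3, and the log2 difference was -0.04 (95% interval -0.55 to 0.46).

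Alpha6, the laminin receptor chain, differed more between litters than between genotypes. Its brightest probe set read 4130, 512 and 1434 in deficient and 2522, 924 and 908 in proficient arrays of litters 1, 2 and 3. Both arrays of litter 1 stood above all others, while the deficient-over-proficient ratio was 1.64, 0.554 and 1.58. The log2 difference was 0.18 (95% interval -0.38 to 0.73), and leaving out 1 litter gave -0.087 (litter 1), 0.67 (litter 2) or -0.055 (litter 3). The second Itga6 probe set did not share the litter pattern. It read 121, 171 and 149 against 157, 211 and 97.3, with litter 1 no higher than litter 2, and over the 6 arrays its log2 values had a Pearson r of -0.302 with the brightest one. That value is a description over arrays that share litters.

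AlphaV, the chain of the vitronectin receptors, resembled alpha6 in its levels by litter. Its brightest probe set read 3707, 1233 and 1872 in deficient and 3318, 1700.0 and 1273 in proficient arrays. Litter 1 was again the highest, litter 2 was the litter with the deficient array lower, and the log2 difference was 0.08 (95% interval -0.42 to 0.59). Over the 6 arrays the brightest probe sets of Itga6 and Itgav had a Pearson r of 0.96, as points that share litters. The second Itgav probe set was above the floor in litter 1 alone, at 50.9 in the deficient and 41.5 in the proficient array. The other 3 Itgav probe sets were at the floor on at least 5 arrays.

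**Figure D2:**
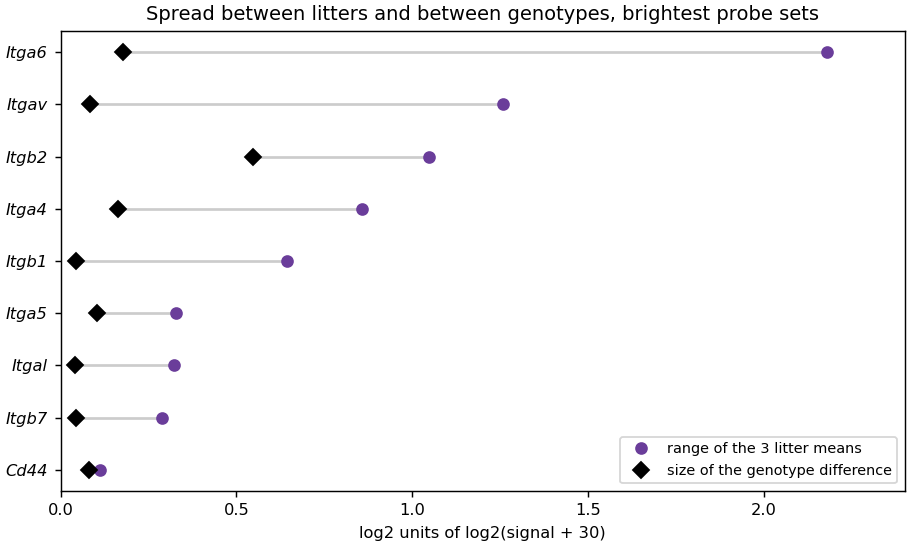
For the 9 members tested, the range of the 3 litter means (circles) and the size of the genotype difference (diamonds), both in log2 units of log2(signal + 30). The range runs from 0.11 in Cd44 to 2.18 in Itga6, while the genotype difference is largest in Itgb2, at 0.55.

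In 9 of the 9 members tested, the litter means spanned more than the genotype difference. The same held for 86.7% of all probe sets, and a range of 3 means tends to exceed a difference of 2, so this count lies near the background. An F test of the litter term in the blocked limma fit, chosen after seeing the data, called Itga6 (adjusted p = 0.000109), Itgav (adjusted p = 0.00396) and Itgb2 (adjusted p = 0.0157), 3 of 9 or 33.3%. The background was 27.1% of all probe sets. Without litter 1 or litter 2 the litter test called 0 members, and without litter 3 it called 2. Litter and age cannot be told apart for litter 1, which was 22 weeks old. The 3′ to 5′ difference of the Gapdh control probe sets, a sign of RNA quality and amplification, was 4.71 and 3.64 log2 units in litter 1 and between 2.30 and 2.98 elsewhere. That of Actb did not set litter 1 apart, at 4.97 and 4.05 in the deficient and proficient arrays of litter 1, 4.27 and 4.43 in litter 2, and 3.30 and 3.70 in litter 3. The part of RNA quality in the litter pattern was not tested.

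Beta2, the chain shared by the leukocyte integrins LFA-1 and Mac-1, had the smallest p of all members. Its 1 probe set read 124, 149.5 and 379.7 in deficient and 101, 102 and 180.0 in proficient arrays of litters 1, 2 and 3. The deficient array was higher in all 3 litters, by a ratio of 1.23, 1.47 and 2.11, although the groups overlapped because both arrays of litter 3 were high. Its log2 difference of 0.55 had a standard error of 0.24 (95% interval 0.05 to 1.04). It did not pass after adjustment (limma with litter as a block, adjusted p = 0.371), and was the 1 member probe set with an unadjusted p under 0.05 (0.0316 in limma). Leaving out litter 3 gave 0.34, and leaving out litter 1 gave 0.71. Among the brightest probe sets of the 9 members, Itgb2 alone had the deficient array higher in every litter, a pattern of 11.3% of all probe sets.

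The alpha partners of beta2 gave no matching value. AlphaL, which completes LFA-1, read 168, 275 and 218 in deficient and 239.6, 243 and 191 in proficient arrays. It was lower in the deficient array of litter 1 and slightly higher in the other litters, with a log2 difference of -0.04 (95% interval -0.52 to 0.44). AlphaM, or CD11b, completes Mac-1 on granulocytes and macrophages and is commonly among the antibody targets of lineage depletion; the labels do not list the antibodies used. The 1 probe set of Itgam was at the floor of 30 on all 6 arrays, so no difference could be measured. Whether this probe set can detect Itgam was not tested. The difference between Itgb2 and Itgal was itself not tested.

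Granulocyte genes were higher in the same arrays as Itgb2. S100a9, a calprotectin subunit, read 1933, 10039 and 29204 in deficient and 106, 1772 and 7550 in proficient arrays of litters 1, 2 and 3. Camp, a granule peptide, read 358, 884 and 9874 against 44.4, 132 and 924. Both genes and Itgb2 were highest in the deficient array of litter 3. Of 5 tested monocyte and macrophage genes, 5 had a difference above 0, beside 46.0% of all probe sets. While 0.315% of all probe sets were called higher, 1 of these 5 rose, Ccr2. Its log2 difference was 1.02, or 0.35 and not called with its probe sets averaged (adjusted p = 0.287 in limma). Lyz2, a lysozyme, was higher in the deficient array of each litter, by a ratio of 1.24, 1.17 and 3.29, with a log2 difference of 0.72 that did not pass (adjusted p = 0.268 in limma). Adgre1, Cd68 and Csf1r had log2 differences of 0.12, 0.10 and 0.03, and Marco was at the floor. Mrc1, too weak to be tested, read 30 in every deficient array and 38.6, 33.9 and 30 in proficient arrays. The summed signal of the 7 monocyte and macrophage genes ran from 772 to 2820 in deficient and from 572 to 1373 in proficient arrays. Spike-in controls were also higher in each deficient array than in its litter mate, at 12.8, 12.0 and 11.9 against 11.6, 11.9 and 11.7 log2 units. Their log2 difference was widest in litter 1, as was that of S100a9, while those of Itgb2 and Camp were widest in litter 3. The part of these genes and controls in the Itgb2 values was not tested.

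**Figure D3:**
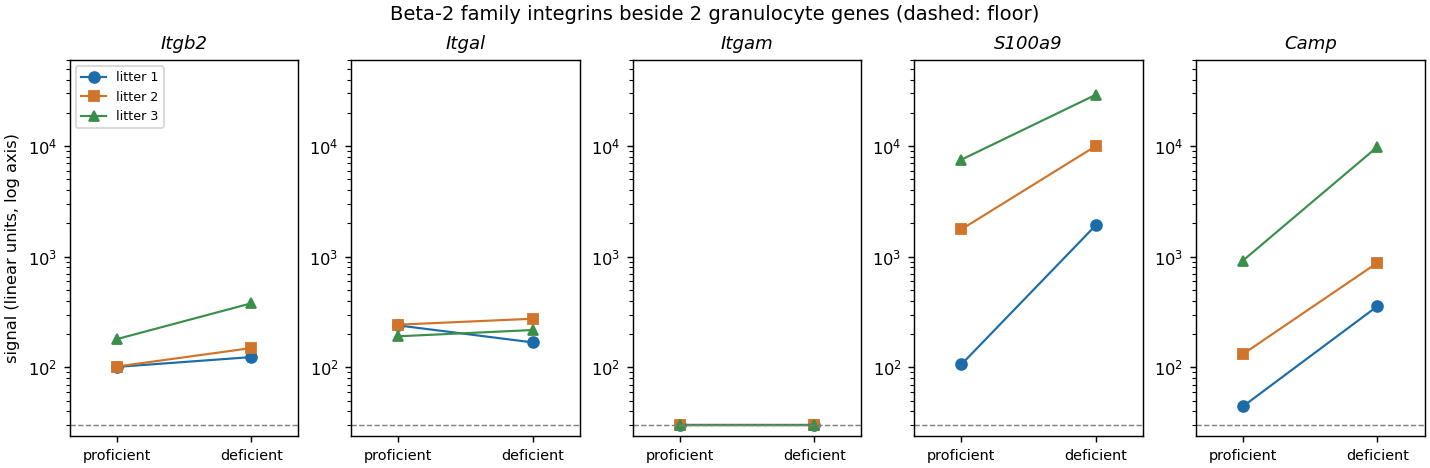
Signals on a log axis of Itgb2, Itgal and Itgam beside the granulocyte genes S100a9 and Camp, in proficient and deficient arrays, with lines joining litter mates and a dashed line at the floor of 30. Itgb2, S100a9 and Camp are higher in the deficient array of each litter and highest in litter 3, while Itgam stays at 30.

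CD44 was bright on all arrays and differed between litters in direction. Its brightest probe set read 1271, 1723 and 2703 in deficient and 2533, 2189.6 and 1269 in proficient arrays of litters 1, 2 and 3. The deficient-over-proficient ratio was 0.502, 0.787 and 2.13, so that litters 1 and 3 stood opposite each other. The log2 difference was -0.08 (95% interval -0.69 to 0.52), and leaving out litter 1 gave 0.37, litter 2 0.047 and litter 3 -0.66. The SD of the 3 litter differences was 1.05, wider than for any other member probe set tested, and the fit, which borrows variance from all probe sets, does not carry that spread in full. With 1 array per genotype in each litter, a difference between litters in the effect of genotype could not be tested. The second Cd44 probe set read 419, 484 and 709 against 547, 479 and 690.5. It had the same order in litter 1 but nearly equal arrays in litters 2 and 3, and its Pearson r with the brightest over the 6 arrays was 0.273. The weakest tested probe set, between 30 and 43.6, was higher in the deficient array of each litter, with a log2 difference of 0.16. The last Cd44 probe set, like 1 of Itgal and 2 of Itga5, read 30 throughout.

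**Figure D4:**
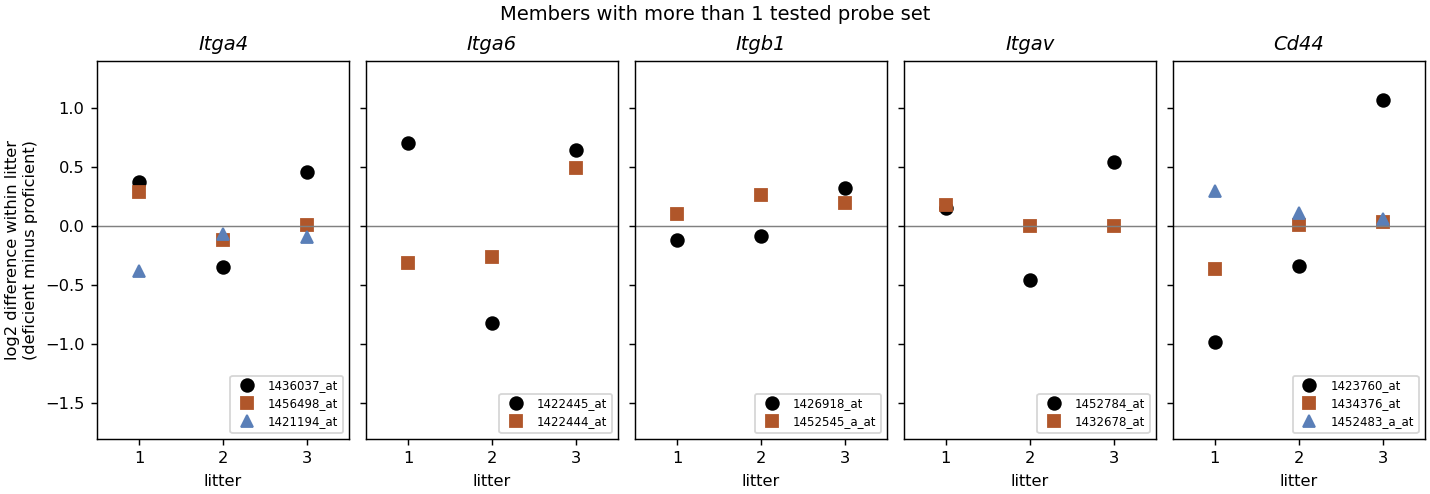
Log2 difference of deficient minus proficient within each litter, for the 5 members with more than 1 tested probe set, with 1 symbol per probe set. Probe sets of Itga6 and Cd44 lie far apart in some litters, as in litter 1, where Itga6 has 0.70 and -0.31.

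Across the members, 5 had more than 1 tested probe set, and in 3 of them, Itga4, Itga6 and Cd44, the probe sets had differences of both signs. Of the 16 tested probe sets, 3 or 18.8% were higher in every deficient array than in its litter mate, namely those of Itgb2 and the weaker probe sets of Itgb1 and Cd44, against 11.3% of all probe sets. An Itga4 probe set, 6.25%, was lower in all litters, against 17.0% of all. In 0 of the 16 the groups did not overlap, a pattern of 7.19% of all probe sets. The brightest probe sets of the 9 members had a median log2 difference of 0.08, beside a median of -0.03 over all probe sets tested, and 6 of 9 or 66.7% lay above 0, beside 46.0% of all. The precision of these values is limited by the 3 arrays per group: the 95% intervals of the brightest probe sets reached from -0.69 in Cd44 to 1.04 in Itgb2. All intervals and standard errors borrow variance from all probe sets, so they understate the spread of a member whose litters differ widely. Besides Cd44 this holds for Itga6, where the SD of the 3 litter differences was 0.86 and the standard error 0.27.

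**Figure D5:**
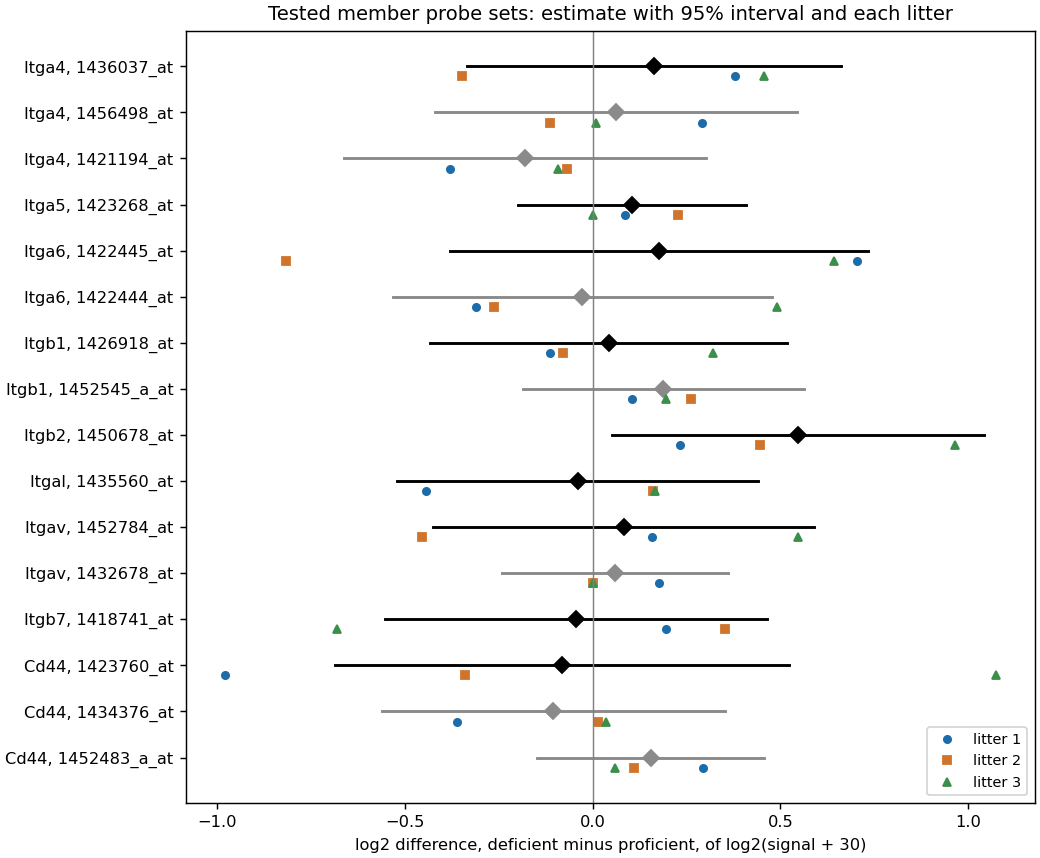
Log2 difference of deficient minus proficient for the 16 tested member probe sets, with its 95% interval (diamonds and bars, black for the brightest probe set of a gene and grey for the others) and the 3 litters as small symbols. The interval of Itgb2, 0.05 to 1.04, is the one that leaves out 0, and its adjusted p is 0.371.

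Genes with the profile closest to a member over the 6 arrays were found among the brightest probe sets of 10884 tested genes, by Pearson r as a description, since 6 arrays in 3 litters yield high values by themselves. Closest to Itgb2 were Rab7b (0.993), Dtx4 (0.993) and Ccl6 (0.987), and 36 genes exceeded 0.95. Itga6 lay closest to Tirap (0.997), Abraxas2 and Tjap1, and Itgav to Ubtf (0.997), Ap3b1 and Rab8b, with 125 and 122 genes above 0.95. The bright Cd44 probe set had 3 such genes, Tmem106c (0.979), Dlgap4 and Tbc1d10b. Closest to Itga4 were 1700023D09Rik (0.995), Prc1 and Tbl1x, to Itgb1 Ppp1r15b (0.996), Trak2 and Hspa14, and to Itgb7 Shc1 (0.998), BC051142 and Cttnbp2nl. Itgal lay closest to Fam53b (0.987), Calhm6 and Tmem161a, and the weak Itga5 to Gm7788 (0.996), Klrg1 and Slc12a5.

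The wider adhesion machinery was described by 5 lists of genes grouped by their role. Of 17 other integrin subunits, 15 had a probe set and 10 of these were at the floor on all arrays, among them Itgax, the CD11c chain that also pairs with beta2. Of the 5 tested, 0 passed in either direction, and Itgae was above the floor on 1 array. Itgb3, which pairs with alphaV and with the platelet chain alphaIIb, read 55.7, 55.1 and 45.3 in deficient and 94.7, 120.1 and 89.8 in proficient arrays. Its groups did not overlap, a pattern of 7.19% of all probe sets and, among others, of Rap1b and Mmp9 below. Its log2 difference of -0.68 had an adjusted p of 0.202 (limma with litter as a block).

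Genes of the cytoplasmic proteins that switch integrins to the binding state ranged from bright to the floor, and none of those tested passed. Of 42 activators and adaptors, 39 had a probe set, 3 of these at the floor on all arrays. Of the 35 tested, 21 had a difference above 0 and 14 below, with a median of 0.07. Rap1b, a small GTPase that drives talin to the integrin tail, averaged 3311 ± 403 in deficient and 2257 ± 241 in proficient arrays (SD, n = 3 each), higher in all 3 litters, with an adjusted p of 0.365 (limma with litter as a block). Vcl, which links talin to actin, averaged 1424 ± 684 against 901 ± 328 (adjusted p = 0.375 in limma). Fermt3, the kindlin of blood cells, had a log2 difference of 0.01.

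Of the 25 ligands of the members with a probe set, 13 were at the floor on all arrays by their brightest one. The same held for 17046 of all 45037 probe sets. Of the 8 tested, 0 passed; Icam1 averaged 79.9 ± 24.2 in deficient and 114 ± 14.2 in proficient arrays, and Vcam1 85.9 ± 60.6 against 55.0 ± 8.25 (SD, n = 3 each). Among CD44 and hyaluronan partners 11 were tested and 0 passed, with a median of 0.24 and 8 of 11 above 0. Hmmr, another hyaluronan receptor that also acts in mitosis, had a log2 difference of 0.46. Mmp9, a protease that binds CD44, had one of 0.44, which has no reliable size because 2 of its values, both in proficient arrays, were at the floor.

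Among selectins and other adhesion receptors, 18 were tested and 1 rose, Selp, beside 0.315% of all probe sets. The median over the list was -0.10. Selp encodes P-selectin, which is known from platelets and endothelium. It read 132, 310 and 166 in deficient and 49.1, 138 and 43.1 in proficient arrays of litters 1, 2 and 3, higher in the deficient array of every litter. The log2 difference of 1.16 had a standard error of 0.24 (limma with litter as a block, adjusted p = 0.0163). Without the block its adjusted p was 0.9998, and averaged over its probe sets the difference was 0.71 and did not pass (0.0885). With 1 litter left out the difference was 1.22, 1.23 and 1.03 for litters 1, 2 and 3. The summed signal of the 4 megakaryocyte and platelet genes with a probe set, Pf4, Ppbp, Gp9 and Itga2b, ran from 1055 to 2415 in deficient and from 441 to 1818 in proficient arrays. Of the 4, Pf4 had a log2 difference of 0.84, while Ppbp (-0.23), Gp9 (-0.18) and Itga2b (-0.04) lay below 0, and 0 passed; their part in the Selp values was not tested. Ncam1 had a log2 difference of 1.17 and did not pass (adjusted p = 0.0793 in limma), with 975 in the deficient array of litter 3.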

How the data were processed

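Per the labels' protocols, RNA from the sorted cells went through 2 linear amplification steps, which favour 3′ ends, before Affymetrix Mouse Genome 430 2.0 arrays. The authors deposited linear signal intensity values from MAS5, as their processing notes state; how arrays were scaled and why values stop at 30 are details not given in the sources used here. After 64 control probe sets were left out, log2(signal + 30) of the 22519 probe sets with a mean signal at or above the median was fitted with limma 3.58.1 in R 4.3.3 (lmFit, eBayes with a variance trend; genotype and litter as terms), with Benjamini-Hochberg adjustment over all of them at 0.05.

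The labels name arrays of the same number as litter mates, and deviations from the group means correlated with r = 0.769, 0.672 and 0.461 in litters 1, 2 and 3. The labels do not say whether a sample was 1 mouse or several, so p-values reflect only how these samples vary. No 2 arrays were identical. Probe sets were named by the 2016 platform annotation, 34945 having 1 symbol, and 34741 were matched by Entrez identifier to RefSeq genes with 0 symbols changed. Named were all members, the genes of each list that passed or else the 2 of smallest p, the 3 genes most like a member, and Ercc1. Other list members (Kit, Cd34, Slamf1, Cd48, Csf1r, Lyz2, Adgre1, Cd68, Marco, Mrc1, Ltf, Lcn2, Mmp8, Cxcr2, Fermt3, Itgax, Gp9, Itga2b and Ncam1) were named after their values were seen. The members and lists were chosen with earlier results of these data known. Alternatives left out the block, each litter, the filter or the variance trend, or changed the normalization, pseudocount, filter or choice of probe set. No sequence is shown because the arrays measure no sequence feature of these genes.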

Additional observations from a re-analysis of the deposited data

How the results depend on the processing

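The count of member probe sets and of member genes called was 0 under every setting that was run. With no block, with no filter or with 1 litter left out, 0 of all probe sets were called, so that count was fixed there. The smallest adjusted p of a member's brightest probe set over 104 values from alternatives was 0.212, for Itgb2 with median centring. In 90 of these 104 the direction was that of the main value, and in 14, from 6 of the 9 members, it was reversed. Leaving out the block, the filter or the variance trend, or a stricter filter, cannot change the difference of a probe set. The direction was thus fixed in advance in those alternatives, and all 14 reversals lay in the others. Itgal was 0.0072 with quantile normalization and 0.051 with median centring, Itgb7 0.063 and 0.047, Itgav -0.088 with quantile normalization, and Cd44 0.0086 with median centring, so none of these members has a settled direction. With 1 litter left out, the difference ran from 0.016 to 0.42 for Itga4, 0.043 to 0.16 for Itga5, -0.087 to 0.67 for Itga6, -0.097 to 0.12 for Itgb1, -0.14 to 0.16 for Itgal, -0.15 to 0.35 for Itgav, -0.24 to 0.27 for Itgb7, -0.66 to 0.37 for Cd44 and 0.34 to 0.71 for Itgb2.

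Over all probe sets, limma called 188, 37.8% of them higher. It called 332 with median centring, 58.1% higher, 114 with no variance trend, 10 of 10399 genes when a gene's probe sets were averaged (7 higher and 3 lower), 0 with no replicate block (579 at an unadjusted p under 0.05), 0 with no filter (1825) and 0 to 0 with 1 litter left out (1288 to 1705). The 1 called adhesion gene outside the members, Selp, became 2 with median centring or the stricter filter, where Ncam1 joined it, and 0 with no replicate block, with no filter, with such averaging, and with any litter left out (0 to 0). The count of members with a litter difference, 3, was 0 with no filter, 1 with the mean over probe sets and 0 to 2 with a litter left out. Fewer arrays leave 1 residual degree of freedom per probe set, and the cause of the other losses was not tested. The floor limits what can be seen of Itgam, Itga5 and the weaker probe sets.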
